A study of Mus musculus with 8 samples.

Results

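The comparison of mouse kidney with mouse liver covered 13382 genes of the 27179 in the table of log2 counts per 1e+06 reads (log2 CPM). A gene was a member when its log2 CPM was above 0, which is 1 CPM, in at least 2 of 4 libraries. The tissues were FFPE kidney (formalin-fixed and paraffin-embedded), flash-frozen kidney, FFPE liver and flash-frozen liver, with 1 total RNA library each. All were organs of mice, and the labels name no strain, sex, age, genotype or number of animals. RNA was extracted with Trizol, after removal of paraffin for FFPE tissue, and sheared by sonication in all 4 libraries. The design thus held 2 libraries per organ, 1 from each preparation, and preparation entered the test as a block. Of the members, 10747 were above 1 CPM in all 4 libraries, 1241 passed only through the 2 kidney libraries, 542 passed only through the 2 liver libraries and 852 passed in another way. The second-highest log2 CPM was 0.0116 in the last gene inside the limit and −0.0014 in the first gene outside it.

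The kidney filters blood in its glomeruli, and the nephron then takes back sugar, amino acids, phosphate, protein and most of the salt and water, in segments that each carry their own transporters. The proximal tubule does most of this uptake, the loop of Henle and the distal tubule handle salt and calcium, and the collecting duct sets water, sodium and acid loss. The liver is built mainly of hepatocytes, which secrete plasma proteins, make urea and bile acids and convert drugs, with Kupffer cells and a perforated sinusoidal endothelium between them. Both organs make glucose, burn fatty acids and use the transcription factor HNF4 alpha.

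The recovered depth was 15593121 reads in FFPE kidney, 18729510 in frozen kidney, 15619829 in FFPE liver and 13716870 in frozen liver. At that depth 3 reads, the floor used where a gene had no reads, stood for 0.136, 0.176, 0.207 and 0.288 CPM in the same libraries. The defining genes of each organ were present in its own libraries, and their values are given with each group. The libraries also carried a little of the other organ's transcripts. In kidney, Alb had 33 reads in FFPE and 56 in frozen tissue. In liver, Kap had 4 reads in FFPE and 37 in frozen tissue, Umod had 1 and 20, and Slc12a1 had 0 and 24. Over 6 liver genes the kidney CPM was 0.00291 to 0.0188 percent of the liver CPM. Over 6 kidney genes the liver CPM was 0.00460 to 0.0943 percent of the kidney CPM in FFPE tissue and 0.0822 to 0.331 percent in frozen tissue. These CPM hold 0.5 added reads. Slc12a1 and Slc22a12 had 0 reads in FFPE liver, so the lowest percents there come from the added reads alone. The part of these traces in the fold changes of such genes was not tested. Sex-linked genes showed that the preparations were not alike: both FFPE libraries held Xist together with Y-linked transcripts, and both frozen libraries held Y-linked transcripts with 1 and 3 reads of Xist.

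Promoter sequences were read for the genes with the largest differences, to show the letters upstream of kidney tubule and hepatocyte genes beside their values; hepatocyte genes are known targets of HNF4. RefSeq (GRCm38.p6) held a promoter for 9 of the 15 largest differences toward kidney and 11 of the 15 toward liver. The 250 bases before the start were searched on both strands for a form of the HNF4 recognition sequence (AAAGTCC) and for the TATA box (TATAAA). The matches in the windows printed do not overlap one another. AAAGTCC was found in 1 of the 4 windows of Ggt1 among the kidney genes, and for Mup3, Abcb11 and Cyp3a11 among the liver genes. TATAAA was found for Miox, Kap and Ggt1 among the kidney genes, and for Cyp3a11, Cyp2c29 and Hc among the liver genes. The match began at base −134 in Ggt1, as the reverse complement, −234 in Cyp3a11, −19 in Cyp2c29 and −239 in Hc. A match at any position of the window was counted. The promoters of Miox and Kap, kidney genes with a TATA box, and of Mup3 and Abcb11, liver genes with the HNF4 core, follow, 5′ to 3′ on the gene's own strand, with either motif or its reverse complement in capitals. Miox lies on the plus strand (window chr15:89334223-89334472), Kap on the minus strand (chr6:133853668-133853917), Mup3 on the minus strand (chr4:62087318-62087567) and Abcb11 on the minus strand (chr2:69342617-69342866).
Miox: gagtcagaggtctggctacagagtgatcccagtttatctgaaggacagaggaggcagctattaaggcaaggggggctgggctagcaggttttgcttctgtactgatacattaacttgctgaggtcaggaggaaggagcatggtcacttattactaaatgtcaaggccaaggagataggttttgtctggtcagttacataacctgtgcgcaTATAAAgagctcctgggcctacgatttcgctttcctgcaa
Kap: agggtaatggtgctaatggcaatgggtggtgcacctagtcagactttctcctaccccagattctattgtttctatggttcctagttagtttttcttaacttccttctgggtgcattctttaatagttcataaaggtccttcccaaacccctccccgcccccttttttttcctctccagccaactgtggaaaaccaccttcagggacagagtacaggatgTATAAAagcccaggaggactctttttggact
Mup3: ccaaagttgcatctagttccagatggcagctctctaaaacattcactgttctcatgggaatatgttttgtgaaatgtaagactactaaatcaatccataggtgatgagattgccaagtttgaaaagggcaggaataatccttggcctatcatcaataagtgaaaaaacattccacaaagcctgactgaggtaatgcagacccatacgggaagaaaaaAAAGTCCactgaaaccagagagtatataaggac
Abcb11: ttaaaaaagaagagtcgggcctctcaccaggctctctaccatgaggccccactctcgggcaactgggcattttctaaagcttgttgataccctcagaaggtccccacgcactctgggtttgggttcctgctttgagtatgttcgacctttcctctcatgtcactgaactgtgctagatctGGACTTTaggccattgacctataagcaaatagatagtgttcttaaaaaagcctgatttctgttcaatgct
The TATA box began at base −40 in Miox and −31 in Kap, and the HNF4 core at −33 in Mup3 and −70 in Abcb11, counted from the start. Among all genes at least 8-fold higher in kidney in both preparations the HNF4 core occurred in 3.70% of 972 windows, among those at least 8-fold lower in 9.12% of 603 windows, and among all tested genes in 3.60% of 13220 windows. The letters TATAAA, at any position and on either strand, occurred in 9.26%, 16.25% and 7.13% of the same windows. A match describes the letters of these windows and was not read as a site in use.

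The organs differed over most of the genes measured. At a limma adjusted p under 0.05, 7432 genes (55.5% of 13382) were called, of which 3707 were higher in kidney (27.7%) and 3725 lower (27.8%). A background of this size means that a call on its own says little about a gene, so sizes carry the account that follows. The middle of the distribution was narrow: 2460 of the called genes differed by less than 1 log2 unit, and the quartiles of all tested genes stood at −0.62 and 0.80. The tails were long, with the 5th percentile at −3.33 and the 95th at 4.71. At least 8-fold differences in both the FFPE and the frozen pair were found for 1037 genes higher in kidney (7.75%) and 670 lower (5.01%). Both kidney libraries lay above both liver libraries for 4661 genes (34.8%), and both lay below them for 4652 (34.8%). No reads at all were found in either liver library for 211 tested genes, and in either kidney library for 81.

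The organ differences of the FFPE pair and the frozen pair were set side by side. Across the 13382 genes, which are not independent replicates and share 4 libraries, the 2 differences had a Pearson r of 0.955 and lay within 1 log2 unit of each other for 11676 genes (87.3%). Their signs matched for 86.3% of tested genes. The closest matches among large differences included the creatine transporter Slc6a8, at 4.66 log2 units in the FFPE pair and 4.67 in the frozen pair. The plasma protein Itih4 stood at −11.93 and −11.94, and the major urinary protein Mup20 at −13.45 and −13.44.

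**Figure D1:**
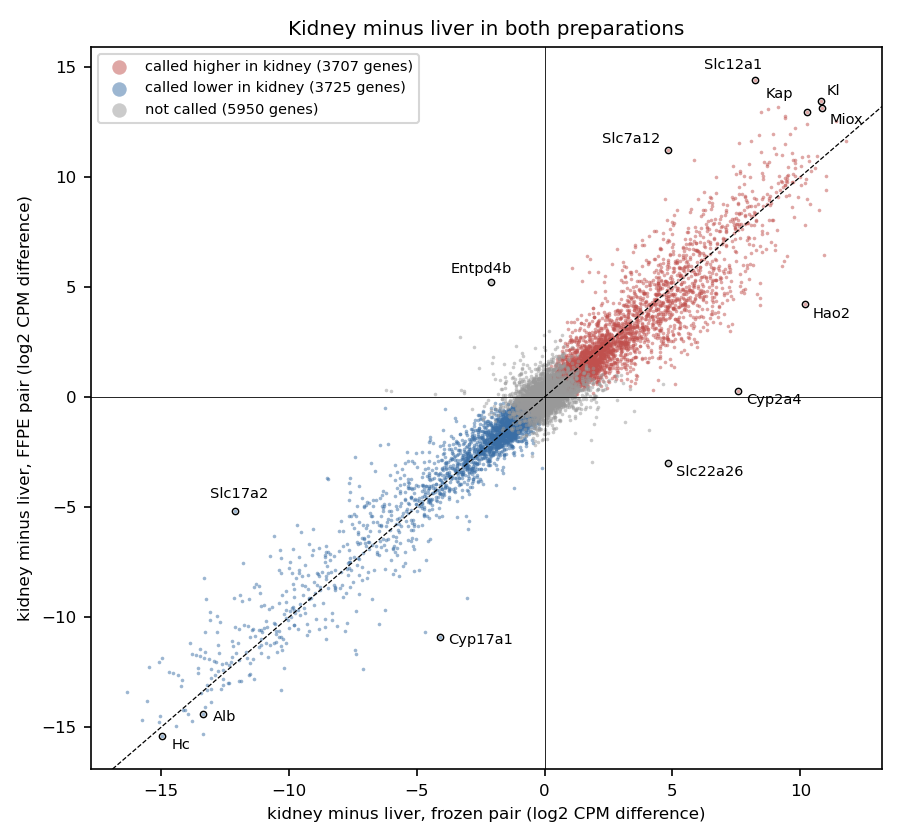
Each point is 1 of the 13382 tested genes, with the kidney minus liver log2 CPM difference of the FFPE libraries on the y axis and that of the frozen libraries on the x axis. Points follow the diagonal (Pearson r 0.955 across genes), and genes far from 0 in the FFPE pair also lie far from 0 in the frozen pair.

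Reads were spread over far more genes in kidney than in liver. Of the reads on protein-coding nuclear genes, with Lars2 left out, the 10 genes with most reads held 4.75% in FFPE and 6.27% in frozen kidney, against 14.9% in FFPE and 15.6% in frozen liver. It took 1175 and 978 genes to hold 50% of those reads in FFPE and frozen kidney, against 397 and 334 genes in FFPE and frozen liver. In kidney these leading genes included Gpx3, the secreted glutathione peroxidase, the endocytic receptor Lrp2 and Kap, and in liver Alb, Apob, Trf, the transferrin gene, and C3. Such shares are of reads, which grow with transcript length. Lars2 was left out because its reads ran with the preparation, at 1740 and 459531 reads in FFPE and frozen kidney, against 3060 and 204638 reads in FFPE and frozen liver.

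Many genes of 1 organ passed the limit for testing only through the libraries of that organ, so the direction of such members was set by the limit, and counts over the tested members describe them without serving as support. Transporters of the proximal tubule had the largest median difference of the kidney lists. All 28 members were tested, 27 were higher in kidney and 1 lower, with adjusted p of 4.43e-08 to 0.000363 and a median difference of 9.59 log2 units (8.35 with members without reads in an organ set at their floor), beside −0.03 over all tested genes. The kidney libraries alone brought in 17 of these members, and of the 9 above 1 CPM in all 4 libraries 8 were higher and 1 lower. The sodium-glucose cotransporter Slc5a2 (chr7:128265683-128272430) had 2444 and 2907 reads in FFPE and frozen kidney, against 0 and 0 reads in FFPE and frozen liver. With the liver at its floor of 3 reads over 2 libraries it was at least 1136-fold higher in kidney. Slc7a13, a cystine and acidic amino acid transporter of the straight proximal tubule, had 207 and 392 CPM in FFPE and frozen kidney, against 0.0344 and 0.144 CPM in FFPE and frozen liver. The urate exchanger Slc22a12 had 317 and 612 CPM in FFPE and frozen kidney, against 0.0344 and 1.10 CPM in FFPE and frozen liver, with a difference of 11.14 ± 0.75 log2 units (SE), and 11 reads in frozen liver against 0 in FFPE liver. Slc6a18, which carries neutral amino acids, had 303 and 265 CPM in FFPE and frozen kidney, against 0.0344 and 0.624 CPM in FFPE and frozen liver. In all of these genes both kidney libraries stood far above both liver libraries. The sodium-phosphate cotransporter Slc34a1 had 958 and 1696 CPM in FFPE and frozen kidney, against 0.448 and 2.06 CPM in FFPE and frozen liver, and the organic anion transporter Slc22a6 had 143 and 318 CPM in FFPE and frozen kidney, against 0.103 and 0.432 CPM in FFPE and frozen liver. Members also used by hepatocytes differed less. The bicarbonate cotransporter Slc4a4 was higher by 2.46 ± 0.24 log2 units (SE) and Slc17a3 by 1.56 ± 0.21. The sulfate transporter Slc26a1 went the other way, with 36.0 and 61.4 CPM in FFPE and frozen kidney, against 116 and 128 CPM in FFPE and frozen liver, a difference of −1.38 ± 0.17, a call lost when any 1 library was left out.

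Genes for protein uptake and the enzymes of the proximal tubule followed, with 26 of 28 higher in kidney, 1 lower and a median of 6.70 log2 units (6.69 at the floor; adjusted p of called members 6.17e-09 to 0.0242). Through the kidney libraries alone 14 members entered, and of the 12 above 1 CPM in all 4 libraries 10 were higher and 1 lower. Lrp2 and Cubn, the receptors megalin and cubilin that take up filtered protein, had 2837 and 3393 CPM in FFPE and frozen kidney, against 0.999 and 5.04 CPM in FFPE and frozen liver for Lrp2, and 498 and 552 CPM in FFPE and frozen kidney, against 0.103 and 0.624 CPM in FFPE and frozen liver for Cubn. Kap, an androgen-regulated protein of the mouse proximal tubule, had 2479 and 4381 CPM in FFPE and frozen kidney, against 0.310 and 3.60 CPM in FFPE and frozen liver. Miox, which opens the ring of myo-inositol, had 6751 and 7540 reads in FFPE and frozen kidney, against 0 and 2 reads in FFPE and frozen liver, a ratio of 4549.6-fold (95% exact interval 1259 to 37571). Ggt1, the brush border enzyme that cleaves glutathione, had 4074 and 7084 reads in FFPE and frozen kidney, against 0 and 3 reads in FFPE and frozen liver. The aspartic protease Napsa differed by 10.79 ± 0.19 log2 units, and the brush border protease Mep1a by 10.76 ± 0.45. Anpep, aminopeptidase N of the brush border and of the bile canaliculus, was the member lower in kidney, at −0.51 ± 0.16, a call lost under several settings, among them no scaling factors and quantile normalization.

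Loop of Henle and distal tubule genes were higher in kidney for 24 of 25, with a median of 7.66 log2 units (6.58 at the floor; adjusted p 3.26e-09 to 0.00132). Testing was reached through the kidney libraries alone by 15 members, and of the 7 above 1 CPM in all 4 libraries 6 were higher and 0 lower. Umod, uromodulin, the most abundant protein of normal urine, had 724 and 1329.6 CPM in FFPE and frozen kidney, against 0.103 and 1.97 CPM in FFPE and frozen liver. Slc12a1, the sodium-potassium-chloride cotransporter of the thick ascending limb, had 749 and 711 CPM in FFPE and frozen kidney, against 0.0344 and 2.35 CPM in FFPE and frozen liver. Its FFPE and frozen differences, 14.41 and 8.24 log2 units, were far apart, with 24 reads in frozen liver and 0 in FFPE liver. The potassium channel Kcnj1 had 2384 and 1686 reads in FFPE and frozen kidney, against 1 and 0 reads in FFPE and frozen liver, a ratio of 2591-fold (95% exact interval 465 to 102381). Slc12a3, the thiazide-sensitive cotransporter of the distal convoluted tubule, had 351 and 299 CPM in FFPE and frozen kidney, against 0.241 and 0.720 CPM in FFPE and frozen liver. Calb1, the calcium-binding protein of the same segment, had 4332 and 2612 reads in FFPE and frozen kidney, against 1 and 1 reads in FFPE and frozen liver, and the calcium channel Trpv5 had 188 and 134 reads in FFPE and frozen kidney, against 0 and 0 reads in FFPE and frozen liver. The member not called was the kininogen Kng2, with 115 and 103 CPM in FFPE and frozen kidney, against 129 and 121 CPM in FFPE and frozen liver, a difference of −0.21 ± 0.13.

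Collecting duct genes were tested for 20 of 22 members, and all 20 were higher in kidney, with a median of 7.44 log2 units (6.31 at the floor; adjusted p 1.25e-06 to 0.0139). Of the tested members 16 entered through the kidney libraries alone, and of the 3 above 1 CPM in all 4 libraries 3 were higher and 0 lower. The water channel Aqp2 had 1337 and 606 reads in FFPE and frozen kidney, against 0 and 6 reads in FFPE and frozen liver, and Aqp3, the channel of the basolateral side, had 791 and 542 reads in FFPE and frozen kidney, against 0 and 1 reads in FFPE and frozen liver. Hsd11b2, which shields the mineralocorticoid receptor from glucocorticoids, had 721 and 584 reads in FFPE and frozen kidney, against 0 and 0 reads in FFPE and frozen liver, at least 277-fold higher in kidney. Genes of the acid-secreting intercalated cells stood at the same kind of contrast. The proton pump subunit Atp6v1b1 had 807 and 584 reads in FFPE and frozen kidney, against 0 and 0 reads in FFPE and frozen liver, and the ammonia channel Rhcg had 830 and 604 reads in FFPE and frozen kidney, against 0 and 0 reads in FFPE and frozen liver. Pendrin, Slc26a4, had 30.7 and 25.4 CPM in FFPE and frozen kidney, against 0.172 and 0.528 CPM in FFPE and frozen liver. The sodium channel subunits were unequal: Scnn1g had no liver reads and 308 and 220 reads in FFPE and frozen kidney, while Scnn1a was higher by 1.16 ± 0.13 log2 units.

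The glomerulus is a small part of the kidney. Of its 19 listed genes 18 were above 1 CPM in each kidney library and 9 in each liver library. Of 19 podocyte and glomerular genes 18 were tested, 15 were higher in kidney and 3 lower, with a median of 4.03 log2 units (3.89 at the floor; adjusted p 6.26e-07 to 0.00508). The kidney libraries alone brought in 9 of these members, and of the 9 above 1 CPM in all 4 libraries 6 were higher and 3 lower. Nephrin, Nphs1, a protein of the filtration slit, had 341 and 209 reads in FFPE and frozen kidney, against 1 and 0 reads in FFPE and frozen liver. Ren1, renin of the juxtaglomerular cells, had 405 and 141 reads in FFPE and frozen kidney, against 0 and 0 reads in FFPE and frozen liver, at least 116-fold higher in kidney. Sema3g was higher by 6.79 ± 0.51 log2 units. Among the members lower in kidney, Ehd3 differed by −1.40 ± 0.16 and the phospholipase Plce1 by −1.12 ± 0.17. In bulk tissue fewer cells of a type and less RNA per cell cannot be told apart, here and for every cell type described.

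**Figure D2:**
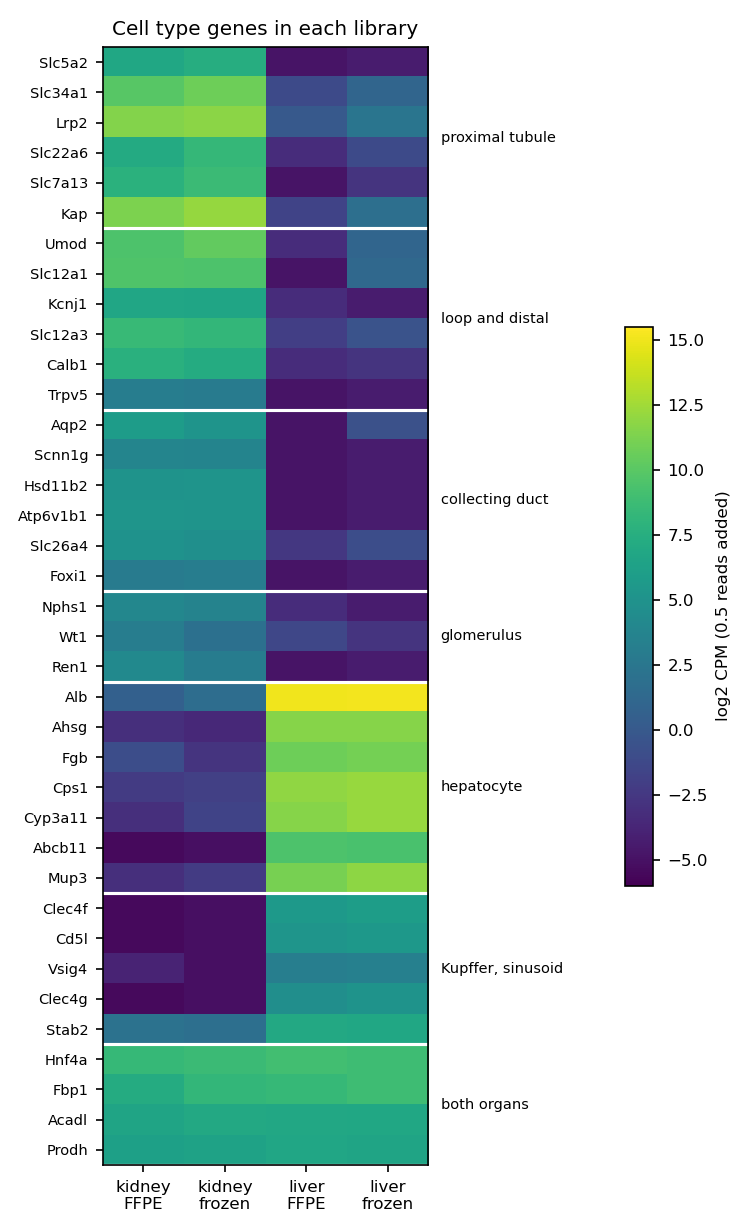
Colour gives log2 CPM (0.5 reads added) in FFPE kidney, frozen kidney, FFPE liver and frozen liver for genes of nephron segments, the glomerulus, hepatocytes and liver sinusoid cells, and for 4 genes used by both organs. Nephron and glomerular genes are lighter in both kidney columns than in both liver columns, hepatocyte and sinusoid genes are lighter in the liver columns, and the 4 genes at the bottom change least across the 4 columns.

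Endocrine genes of the kidney included the largest fitted difference toward kidney of any tested gene with a symbol. Kl, klotho, the co-receptor through which the kidney reads FGF23, had 8402 and 7385 reads in FFPE and frozen kidney, against 0 and 2 reads in FFPE and frozen liver, a ratio of 5026-fold (95% exact interval 1391 to 41504). The vitamin D receptor Vdr had 1789 and 1687 reads in FFPE and frozen kidney, against 1 and 1 reads in FFPE and frozen liver, and Cyp24a1, which breaks down active vitamin D, had 683 and 496 reads in FFPE and frozen kidney, against 0 and 0 reads in FFPE and frozen liver. Cyp27b1, which makes active vitamin D, was higher by 3.45 ± 0.82 log2 units, and Cyp2r1, the liver enzyme of the step before it, was lower by 3.10. Tissue kallikrein, Klk1, had 301 and 293 CPM in FFPE and frozen kidney, against 0.379 and 0.432 CPM in FFPE and frozen liver. Of the 17 genes in this list of endocrine, ammonia and creatine genes 16 were tested, 11 were higher and 5 lower, with a median of 4.29 log2 units and adjusted p of 9.70e-09 to 0.00770. The shares over all tested genes were 27.7% higher and 27.8% lower. Through the kidney libraries alone 7 members entered. Of the 9 above 1 CPM in all 4 libraries 4 were higher and 5 lower, and the median of these 9 was −1.16. The lower members belong mostly to nitrogen and glucose handling: Slc38a3, a glutamine transporter, stood at −5.30 ± 0.13, Glud1, glutamate dehydrogenase, at −2.25 ± 0.16 and Pck1 at −1.72 ± 0.22. The other lower members were Ddc and the angiotensin receptor Agtr1a, at −1.43 ± 0.14 and −1.16 ± 0.15.

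Transcription factors of the nephron were higher in kidney for all 26 tested of 27, with a median of 6.67 log2 units (5.89 at the floor; adjusted p 8.86e-08 to 0.000720). Testing was reached through the kidney libraries alone by 20 members, and of the 6 above 1 CPM in all 4 libraries 6 were higher and 0 lower. In 12 of the 26, no read was found in either liver library. Pax8, which specifies the renal lineage, had 1115 and 709 reads in FFPE and frozen kidney, against 2 and 0 reads in FFPE and frozen liver. Sim1 had 796 and 307 reads in FFPE and frozen kidney, against 0 and 0 reads in FFPE and frozen liver, Hoxd8 had 643 and 454 reads in FFPE and frozen kidney, against 0 and 0 reads in FFPE and frozen liver and Hoxa10 had 408 and 306 reads in FFPE and frozen kidney, against 0 and 0 reads in FFPE and frozen liver. Foxi1, the factor of intercalated cells, had 174 and 148 reads in FFPE and frozen kidney, against 0 and 0 reads in FFPE and frozen liver. The smallest difference of the list was that of Maf, at 1.79 ± 0.14 log2 units.

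On the liver side, secreted plasma proteins were lower in kidney for all 32 members, with a median of −10.52 log2 units and adjusted p of 1.04e-09 to 0.000133. Of the tested members 17 entered through the liver libraries alone, and of the 11 above 1 CPM in all 4 libraries 0 were higher and 11 lower. Albumin, Alb (chr5:90460870-90476602), had 1.52 and 3.31 CPM in FFPE and frozen kidney, against 33282 and 35200.3 CPM in FFPE and frozen liver. Its difference was −13.90 ± 0.24 log2 units (SE). The fetuin gene Ahsg had 2 and 1 reads in FFPE and frozen kidney, against 45196 and 31456 reads in FFPE and frozen liver, a ratio of 40129-fold (95% exact interval 13731 to 194594) toward liver. Serpina3k had 2 and 2 reads in FFPE and frozen kidney, against 37792 and 51846 reads in FFPE and frozen liver. Serpina1e, an alpha-1 antitrypsin gene of a cluster of near-identical copies, where reads may have been split between copies, had 7 and 1 reads in FFPE and frozen kidney, against 24100 and 41438 reads in FFPE and frozen liver. The smallest difference of the list was another copy, Serpina1d, with 10.1 and 28.7 CPM in FFPE and frozen kidney, against 568 and 788 CPM in FFPE and frozen liver. Apob, the protein of very low density lipoprotein, kept 220.3 and 297 CPM in FFPE and frozen kidney, against 10611 and 11081 CPM in FFPE and frozen liver. The major urinary proteins, pheromone carriers made in liver, were lower in kidney for 22 of 22, with a median of −9.49 log2 units (−8.22 at the floor), and 17 of them had no kidney reads. None was above 1 CPM in a kidney library, so all 22 entered through the liver libraries alone. Mup3 had 2 and 3 reads in FFPE and frozen kidney, against 30984 and 38902 reads in FFPE and frozen liver, and Mup20 had 0 and 0 reads in FFPE and frozen kidney, against 3674 and 3388 reads in FFPE and frozen liver. These genes are nearly alike in sequence, so the values of single copies are uncertain.

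Complement and coagulation genes were lower in kidney for 34 of 34, with a median of −8.36 log2 units and adjusted p of 2.79e-09 to 4.49e-05. The liver libraries alone brought in 17 of these members, and of the 16 above 1 CPM in all 4 libraries 0 were higher and 16 lower. Hc, complement C5, had the largest fitted difference toward liver of any tested gene with a symbol, with 0 and 0 reads in FFPE and frozen kidney, against 14356 and 9899 reads in FFPE and frozen liver. With kidney at its floor it was at least 12698-fold lower in kidney. Plasminogen, Plg, had 2 and 0 reads in FFPE and frozen kidney, against 23302 and 14672 reads in FFPE and frozen liver, the fibrinogen chain Fgb had 11 and 2 reads in FFPE and frozen kidney, against 24790 and 21591 reads in FFPE and frozen liver, and C8b had 0 and 0 reads in FFPE and frozen kidney, against 2095 and 2333 reads in FFPE and frozen liver. Some members were shared with kidney. F13b had 37.8 and 48.2 CPM in FFPE and frozen kidney, against 163 and 147 CPM in FFPE and frozen liver, the smallest difference of the list at −1.86 ± 0.15 log2 units.

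Bile acid genes were lower in kidney for 23 of 27 and higher for 3, with a median of −4.27 log2 units and adjusted p of 7.84e-09 to 0.0276. Through the liver libraries alone 11 members entered, and 2 through the kidney libraries alone, and of the 13 above 1 CPM in all 4 libraries 1 was higher and 11 lower. Abcb11, the bile salt export pump, had 0 and 0 reads in FFPE and frozen kidney, against 10531 and 6699 reads in FFPE and frozen liver, at least 9020.3-fold lower in kidney. Cyp7a1, the rate-limiting enzyme of bile acid synthesis, had 1 and 0 reads in FFPE and frozen kidney, against 3976 and 2415 reads in FFPE and frozen liver. The uptake carrier Slco1b2 had 2 and 3 reads in FFPE and frozen kidney, against 12764 and 8076 reads in FFPE and frozen liver, and Slc27a5, the bile acid-CoA ligase, had 2 and 3 reads in FFPE and frozen kidney, against 6249 and 5825 reads in FFPE and frozen liver. The 3 members higher in kidney are transporters that take bile acids back, known also from the ileum. Slc51a had 169 and 240 reads in FFPE and frozen kidney, against 0 and 0 reads in FFPE and frozen liver, its partner subunit Slc51b had 133 and 108 reads in FFPE and frozen kidney, against 1 and 1 reads in FFPE and frozen liver, and the apical carrier Slc10a2 was higher by 1.33 ± 0.23 log2 units.

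Urea cycle and amino acid breakdown genes were lower in kidney for 37 of 38, with a median of −3.26 log2 units and adjusted p of 1.04e-09 to 0.00192. Testing was reached through the liver libraries alone by 12 members, and of the 24 above 1 CPM in all 4 libraries 0 were higher and 23 lower. Tat, tyrosine aminotransferase, had 1 and 0 reads in FFPE and frozen kidney, against 25431 and 16583 reads in FFPE and frozen liver. Cps1, the entry enzyme of the urea cycle, had 4 and 4 reads in FFPE and frozen kidney, against 55878 and 47248 reads in FFPE and frozen liver, and Arg1, the arginase that ends it, had 2 and 0 reads in FFPE and frozen kidney, against 9901 and 7267 reads in FFPE and frozen liver. Tryptophan dioxygenase, Tdo2, had 4 and 0 reads in FFPE and frozen kidney, against 11067 and 9828 reads in FFPE and frozen liver. Ass1 and Asl, which act between Cps1 and Arg1, also serve arginine synthesis in kidney. Ass1 had 263 and 537 CPM in FFPE and frozen kidney, against 1064 and 1106 CPM in FFPE and frozen liver, and Asl had 34.6 and 53.2 CPM in FFPE and frozen kidney, against 281 and 318 CPM in FFPE and frozen liver. Those 2 differences were −1.53 ± 0.25 and −2.80 ± 0.15 log2 units. Prodh, proline dehydrogenase, was the member not called, at −0.35 ± 0.14 (95% interval −0.68 to −0.03).

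Cytochrome P450 genes of drug metabolism were lower in kidney for 25 of 28 tested, with 2 higher, a median of −7.89 log2 units and adjusted p of 3.40e-09 to 0.0336. Of the tested members 15 entered through the liver libraries alone, and of the 12 above 1 CPM in all 4 libraries 1 was higher and 10 lower. The 2 members left untested reached up to 4205 reads in a library. Cyp3a11 had 0.113 and 0.322 CPM in FFPE and frozen kidney, against 3080.0 and 4619.8 CPM in FFPE and frozen liver, Cyp2c29 had 0 and 1 reads in FFPE and frozen kidney, against 13284 and 9730 reads in FFPE and frozen liver and Cyp3a25 had 0 and 0 reads in FFPE and frozen kidney, against 7184 and 4816 reads in FFPE and frozen liver. Cyp2e1, which oxidises ethanol, was lower by 3.48 log2 units with an SE of 0.31, and still had 191 and 449 CPM in FFPE and frozen kidney. The renal form Cyp4b1 was higher, with 318 and 1030.3 CPM in FFPE and frozen kidney, against 8.99 and 14.3 CPM in FFPE and frozen liver. Cyp2a4 was the other member called higher, with a large difference in the frozen pair alone, and is described with the preparations. Cyp2c and Cyp3a genes also come in similar copies.

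Conjugating enzymes were mixed, with 25 of 38 tested lower in kidney and 10 higher, a median of −3.01 log2 units and adjusted p of 9.91e-09 to 0.00851. The liver libraries alone brought in 11 of these members and the kidney libraries alone 1, and of the 24 above 1 CPM in all 4 libraries 9 were higher and 12 lower. Over all tested genes 27.7% were higher and 27.8% lower, so the share of higher members was near that of all genes. The count of higher members was 6 with brain and heart libraries in the fit and 3 when frozen kidney was then left out. The sulfotransferase Sult2a8 had 1 and 0 reads in FFPE and frozen kidney, against 7350 and 5695 reads in FFPE and frozen liver. Within the glucuronosyltransferases of the Ugt2b cluster, close copies of one another, the direction depended on the gene. Ugt2b36 had 2 and 0 reads in FFPE and frozen kidney, against 4587 and 3487 reads in FFPE and frozen liver, and Ugt2b1 had 1 and 1 reads in FFPE and frozen kidney, against 4504 and 4802 reads in FFPE and frozen liver. Ugt2b38 had 81.2 and 174 CPM in FFPE and frozen kidney, against 5.34 and 6.48 CPM in FFPE and frozen liver, and Ugt2b37 had 14.0 and 27.5 CPM in FFPE and frozen kidney, against 2.17 and 1.30 CPM in FFPE and frozen liver. The sulfotransferase Sult1c2 was higher in kidney by 4.38 ± 0.31 log2 units, and Ugt8a, the galactosyltransferase of sphingolipid synthesis, by 7.11 ± 0.25.

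Cholesterol and lipid synthesis genes were lower in kidney for 28 of 31, but by smaller steps, with a median of −2.17 log2 units and adjusted p of 5.85e-08 to 0.0368. Sc5d, a late enzyme of cholesterol synthesis, had 13.3 and 14.7 CPM in FFPE and frozen kidney, against 427 and 390.4 CPM in FFPE and frozen liver. The desaturase Scd1 had 344 and 112 CPM in FFPE and frozen kidney, against 5325 and 5111 CPM in FFPE and frozen liver, Mttp, which loads lipoproteins, had 7.91 and 11.4 CPM in FFPE and frozen kidney, against 218 and 271 CPM in FFPE and frozen liver and Fdps had 4.28 and 6.58 CPM in FFPE and frozen kidney, against 87.4 and 141 CPM in FFPE and frozen liver. The malic enzyme Me1 was called higher at 0.43 ± 0.15 log2 units, although the organs overlapped, with 110.0 and 213 CPM in FFPE and frozen kidney, against 92.6 and 139 CPM in FFPE and frozen liver.

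Hepatocyte transcription factors split into liver-restricted and shared members. Of 25, 20 were lower in kidney, 1 was higher and 4 were not called, with a median of −3.55 log2 units and adjusted p of 6.60e-08 to 0.00209. Through the liver libraries alone 8 members entered, and of the 16 above 1 CPM in all 4 libraries 1 was higher and 11 lower. Onecut2 had 2 and 0 reads in FFPE and frozen kidney, against 3544 and 1481 reads in FFPE and frozen liver, and Nr1i3, the drug sensor CAR, had 1 and 0 reads in FFPE and frozen kidney, against 1531 and 849 reads in FFPE and frozen liver. Creb3l3 had 4 and 0 reads in FFPE and frozen kidney, against 1687 and 1405 reads in FFPE and frozen liver, Foxa3 had 1 and 0 reads in FFPE and frozen kidney, against 249 and 385 reads in FFPE and frozen liver and Foxa2 had 1 and 0 reads in FFPE and frozen kidney, against 166 and 103 reads in FFPE and frozen liver. Cebpa was lower by 3.92 log2 units. Members used by both organs differed less. The nuclear receptor Hnf4a had 334 and 401 CPM in FFPE and frozen kidney, against 507 and 442 CPM in FFPE and frozen liver, a difference of −0.37 ± 0.18 (95% interval −0.79 to 0.05, adjusted p 0.117 in limma) that became 0.67, and was called, with quantile normalization. Bcl6 and Zhx2 were also not called, at −0.05 ± 0.14 and 0.19 ± 0.15.

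**Figure D3:**
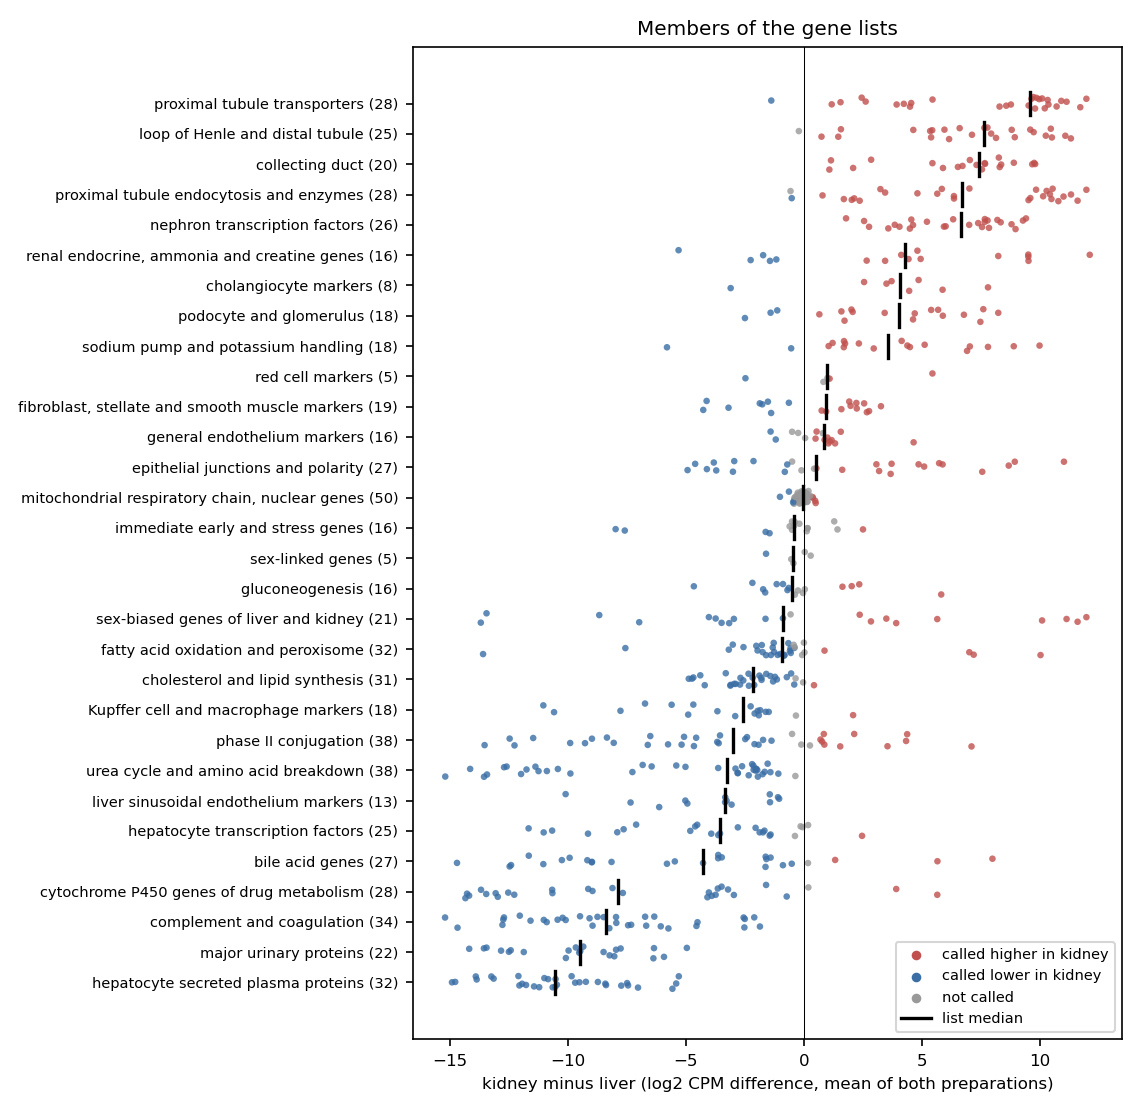
Kidney minus liver differences in log2 CPM of the tested members of each fixed gene list, 1 point per gene, with the median of each list marked. Nephron lists lie to the right of 0, hepatocyte lists to the left, and the respiratory chain lies close to 0 with a median of −0.05.

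Gluconeogenesis, which both organs run, was mixed. Of 16 gluconeogenesis genes 4 were higher in kidney, 8 lower and 4 not called, with a median of −0.51 log2 units. Over all tested genes 27.7% were higher and 27.8% lower. With brain and heart libraries in the fit 4 of the 16 were higher and 3 lower, and without the preparation block 4 and 5. With quantile normalization 7 were higher and 3 lower with a median of 0.11, so no direction is given for the pathway. Pck1, which commits carbon to glucose, had 511 and 515 CPM in FFPE and frozen kidney, against 1913 and 1493 CPM in FFPE and frozen liver, and its mitochondrial form Pck2 had 5.32 and 6.88 CPM in FFPE and frozen kidney, against 2.24 and 1.68 CPM in FFPE and frozen liver. Glucose-6-phosphatase, G6pc, was lower by 1.15 log2 units and G6pc3, the form outside the gluconeogenic organs, higher by 2.35. Fbp1 was lower by 0.88, a sign that turned with quantile normalization (0.01), and Fbp2, the muscle form, had 93 and 107 reads in FFPE and frozen kidney, against 2 and 0 reads in FFPE and frozen liver. The alanine aminotransferase Gpt was lower in kidney by 4.66, and Got1 by 2.18.

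Fatty acid oxidation and peroxisomal genes were lower in kidney for 23 of 32 tested and higher for 4, with a median of −0.91 log2 units and adjusted p of 5.20e-09 to 0.0461. The shares over all tested genes were 27.8% lower and 27.7% higher. With brain and heart libraries in the fit 19 of the 32 were lower and 4 higher, and without the preparation block 15 and 4. Quantile normalization gave 17 lower and 7 higher, and no scaling factors 16 and 4. Oxct1, which lets tissues burn ketone bodies, had 468 and 580.3 CPM in FFPE and frozen kidney, against 3.55 and 4.56 CPM in FFPE and frozen liver. The urate oxidase Uox had 2 and 0 reads in FFPE and frozen kidney, against 9365 and 8139 reads in FFPE and frozen liver, while Dao, D-amino acid oxidase, had 1585 and 2167 reads in FFPE and frozen kidney, against 0 and 2 reads in FFPE and frozen liver. Acadm was higher by 0.88 ± 0.17 and catalase, Cat, lower by 2.55. The long-chain dehydrogenase Acadl was close between the organs, at −0.07 ± 0.16 (95% interval −0.44 to 0.31), which became 0.53 with quantile normalization. Of the 29 members above 1 CPM in all 4 libraries, 22 were lower and 2 higher.

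The nuclear genes of the respiratory chain mostly did not pass the test. Of 50 tested 3 were called higher, 5 lower and 42 not called, with a median of −0.05 log2 units and every member between −1.01 and 0.51. The share called in either direction over all tested genes was 55.5%. The complex III subunit Uqcrq had 29.7 and 66.2 CPM in FFPE and frozen kidney, against 65.1 and 122 CPM in FFPE and frozen liver, a difference of −1.01 ± 0.13 log2 units. Cox8a was higher by 0.51 ± 0.14 and Ndufb8 by 0.49 ± 0.14, with libraries that overlapped between organs, and the difference of Cox8a was −0.0021 without frozen kidney. Quantile normalization gave 23 higher and 1 lower, no scaling factors 10 higher and 1 lower, and a fit without the preparation block none in either direction, so the counts changed with the scaling and the block. Without scaling factors the median of all tested genes moved to 0.41 log2 units, which is the size of such differences.

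Genes of the sodium pump and potassium channels went with the kidney. Of 18 tested 16 were higher and 2 lower, with a median of 3.56 log2 units and adjusted p of 5.00e-09 to 0.0341. Testing was reached through the kidney libraries alone by 6 members, and of the 9 above 1 CPM in all 4 libraries 8 were higher and 1 lower. The beta subunit Atp1b1 had 785 and 873 CPM in FFPE and frozen kidney, against 42.9 and 36.2 CPM in FFPE and frozen liver. Fxyd2, the tubular regulator of the pump, had 198 and 334 CPM in FFPE and frozen kidney, against 0.172 and 1.68 CPM in FFPE and frozen liver, and Fxyd1 went the other way, with 0.566 and 1.49 CPM in FFPE and frozen kidney, against 48.5 and 53.8 CPM in FFPE and frozen liver. The potassium channel Kcnj15 differed by 9.99 ± 0.17 log2 units. Junction genes were divided, with 14 of 27 tested higher and 10 lower and a median of 0.54 log2 units. The shares over all tested genes were 27.7% higher and 27.8% lower. Of the tested members 9 entered through the kidney libraries alone and 1 through the liver libraries alone, and of the 16 above 1 CPM in all 4 libraries 4 were higher and 9 lower. With only those 16 the median of epithelial junctions and polarity was −0.75. Cdh16, the kidney cadherin, had 4939 and 4960 reads in FFPE and frozen kidney, against 0 and 4 reads in FFPE and frozen liver, and the claudin Cldn10 had 924 and 1147 reads in FFPE and frozen kidney, against 0 and 3 reads in FFPE and frozen liver. The hepatocyte connexin Gjb1 had 191 and 187 reads in FFPE and frozen kidney, against 4140 and 3202 reads in FFPE and frozen liver. E-cadherin, Cdh1, was used by both, with 107 and 94.0 CPM in FFPE and frozen kidney, against 69.3 and 69.1 CPM in FFPE and frozen liver.

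Genes listed in pairs were set side by side. Of 26 pairs with a gene listed as the kidney form and a gene listed as the liver form, both were tested for 25. Not every pair holds forms of the same protein. The pair for urate handling sets the exchanger Slc22a12 beside the oxidase Uox, and the creatine pair holds different enzymes. In 16 of the 25 the listed kidney form was called higher and the listed liver form lower. The shares over all tested genes were 27.7% higher and 27.8% lower. Gene lists were chosen with earlier results of these data known, so the count describes these pairs without serving as support. For the aquaporins, Aqp1 had 206 and 280.2 CPM in FFPE and frozen kidney, against 46.5 and 67.4 CPM in FFPE and frozen liver and Aqp9 had 0 and 0 reads in FFPE and frozen kidney, against 3193 and 2584 reads in FFPE and frozen liver. The fatty acid binding proteins Fabp3 and Fabp1 differed by 6.10 and −12.72 log2 units, the pyruvate kinases Pkm and Pklr by 3.15 and −3.35, and the creatine enzymes Gatm and Gamt by 4.82 and −4.02.

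Several pairs were uneven. Ldhb differed by 7.62 ± 0.16 log2 units, while Ldha differed by only −0.76 ± 0.14 with libraries that overlapped. Slc22a7 had 55.1 and 99.2 CPM in FFPE and frozen kidney, against 15.3 and 17.9 CPM in FFPE and frozen liver, so this anion transporter was higher in kidney together with Slc22a6. Hnf4g was higher by 4.06, while its partner Hnf4a was not called. For the carboxykinases the order was turned, with Pck1, listed as the kidney form, at −1.72 and Pck2 at 1.64. The citrate carrier Slc13a5 stayed below the limit for testing, with 11 and 27 reads in FFPE and frozen kidney, against 13 and 4 reads in FFPE and frozen liver.

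**Figure D4:**
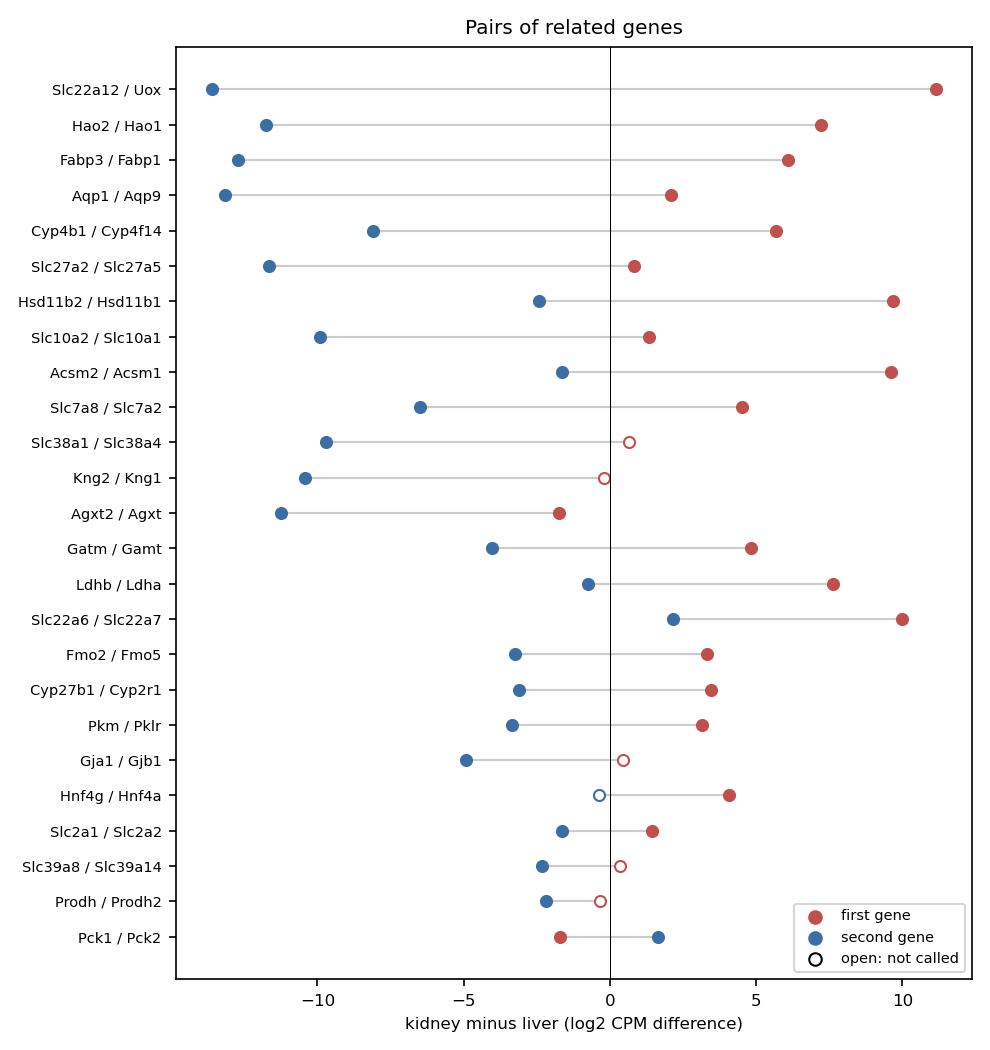
Kidney minus liver differences in log2 CPM of 25 gene pairs, named on the y axis. The gene named first, listed as the kidney form, has 1 colour, the gene named second, listed as the liver form, has another, and open points are genes not called. Most pairs span 0, and the pair Pck1 and Pck2 runs the other way.

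Cells other than tubule cells and hepatocytes also told the organs apart. Kupffer cell and macrophage genes were lower in kidney for 16 of 18, with 1 higher, a median of −2.58 log2 units and adjusted p of 4.11e-07 to 0.0189. The liver libraries alone brought in 7 of these members and the kidney libraries alone 1, and of the 8 above 1 CPM in all 4 libraries 0 were higher and 7 lower. The Kupffer cell lectin Clec4f had 0 and 0 reads in FFPE and frozen kidney, against 667 and 662 reads in FFPE and frozen liver, and Cd5l, a macrophage survival factor, had 0 and 0 reads in FFPE and frozen kidney, against 526 and 447 reads in FFPE and frozen liver. Vsig4 had 1 and 0 reads in FFPE and frozen kidney, against 131 and 108 reads in FFPE and frozen liver. The general macrophage receptor Csf1r was not called, at −0.33 ± 0.13 log2 units, and Cx3cr1, known from resident renal macrophages, was higher by 2.09 ± 0.61, a call lost with quantile normalization, with no filter, and without frozen kidney or frozen liver. All 13 genes of the sinusoidal endothelium were lower in kidney, with a median of −3.33 log2 units. Of these 5 entered through the liver libraries alone. Clec4g had 0 and 0 reads in FFPE and frozen kidney, against 351 and 339 reads in FFPE and frozen liver, and the scavenger receptor Stab2 had 4.42 and 3.54 CPM in FFPE and frozen kidney, against 127 and 115 CPM in FFPE and frozen liver.

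General endothelial genes pointed mildly to kidney, with 10 of 16 higher, 2 lower and a median of 0.85 log2 units. Over all tested genes 27.7% were higher and 27.8% lower. With brain and heart libraries in the fit 7 of the 16 were higher and 2 lower, and without the preparation block 7 and 1. Emcn, endomucin, had 29.5 and 26.1 CPM in FFPE and frozen kidney, against 1.48 and 0.816 CPM in FFPE and frozen liver, Pecam1 was higher by 1.18 ± 0.16, and Kdr and Cdh5 were not called, at 0.06 ± 0.13 and −0.24 ± 0.15. Fibroblast, stellate and smooth muscle genes divided, with 11 of 19 higher and 8 lower and a median of 0.95 log2 units. The count of lower members was 6 with brain and heart libraries in the fit and 3 when FFPE kidney or FFPE liver was then left out. Acta2, smooth muscle actin, had 27.1 and 15.2 CPM in FFPE and frozen kidney, against 2.24 and 1.97 CPM in FFPE and frozen liver. The stellate cell genes Reln, Lrat and Colec11 were lower by 4.26, 3.19 and 4.12 log2 units. Of the genes of bile duct cells, which renal tubules also use, 7 of 8 tested were higher in kidney, among them Krt7 at 5.89 ± 0.44 and Epcam at 4.87 ± 0.33, and Sox9 was lower at −3.10 ± 0.32. Of the 8, 4 entered through the kidney libraries alone.

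Few markers of neighbouring or admixed tissue passed the limit for testing: 1 of 15 lymphocyte and granulocyte genes, 1 of 9 adrenal genes, 2 of 9 adipocyte genes and 1 of 11 pancreas and gallbladder genes. Ptprc, the pan-leukocyte gene, had 264 and 159 reads in FFPE and frozen kidney, against 199 and 122 reads in FFPE and frozen liver. Adipoq, which defines adipocytes, had 73 and 1 reads in FFPE and frozen kidney, against 0 and 1 reads in FFPE and frozen liver, and Cyp11b1 of the adrenal cortex had 8 and 0 reads in FFPE and frozen kidney, against 0 and 0 reads in FFPE and frozen liver. The summed adrenal level was 5.91 and 0.556 CPM in FFPE and frozen kidney, against 2.38 and 1.58 CPM in FFPE and frozen liver. Summed adipocyte levels were 69.2 and 25.8 CPM in FFPE and frozen kidney, against 13.3 and 13.3 CPM in FFPE and frozen liver, with 7 of 9 adipocyte genes above 1 CPM in FFPE kidney and 2 in each other library. Fabp4 was higher in kidney by 2.15 ± 0.21 log2 units, a call lost when any 1 library was left out. Red cell genes summed to 83.1 and 224.8 CPM in FFPE and frozen kidney, against 75.5 and 109.4 CPM in FFPE and frozen liver. The red cell list shares a gene with the collecting duct list. Of 5 red cell genes tested 2 were called higher in kidney and 1 lower, the heme synthesis gene Alas2 at −2.47 ± 0.16 log2 units. The kidney libraries alone brought in 1 of the 5. Of the 4 above 1 CPM in all 4 libraries 1 was higher and 1 lower, beside 27.7% and 27.8% over all tested genes. Whether blood or fat left in the tissue has a part in these values was not tested.

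Acute response and stress genes were mostly not called, with 1 of 16 tested higher in kidney and 4 lower. The shares over all tested genes were 27.7% higher and 27.8% lower. The lower count was 2 without FFPE kidney or frozen liver, and the higher count was 3 without FFPE liver. The serum amyloid genes Saa1 and Saa2, secreted by the liver, had 0 and 2 reads in FFPE and frozen kidney, against 271 and 116 reads in FFPE and frozen liver for Saa1, and 0 and 0 reads in FFPE and frozen kidney, against 98 and 37 reads in FFPE and frozen liver for Saa2. The heat shock gene Hspa1a had 9.99 and 7.29 CPM in FFPE and frozen kidney, against 1.41 and 1.58 CPM in FFPE and frozen liver. Metallothioneins depended on the library, with Mt1 at 10.5 and 13.5 CPM in FFPE and frozen kidney, against 16.3 and 1.20 CPM in FFPE and frozen liver.

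A minority of genes gave a different organ contrast in the FFPE pair than in the frozen pair, among them genes known to differ between female and male mice. Xist, expressed from the inactive X of females, had 15389 and 1 reads in FFPE and frozen kidney, against 24213 and 3 reads in FFPE and frozen liver. The Y-linked Ddx3y had 450 and 525 reads in FFPE and frozen kidney, against 308 and 639 reads in FFPE and frozen liver, and Uty had 460 and 466 reads in FFPE and frozen kidney, against 211 and 270 reads in FFPE and frozen liver. FFPE tissue thus carried both kinds of transcript in both organs, while the frozen tissue carried the Y-linked kind. The number of animals behind each library is unknown here, so preparation and the sex of the animals cannot be told apart. Slc7a12, a kidney gene known to be higher in female mice, had 1827 and 23 reads in FFPE and frozen kidney, against 0 and 0 reads in FFPE and frozen liver. Cyp2b10 and Cyp2c69, liver genes higher in females, had 0 and 3 reads in FFPE and frozen kidney, against 531 and 54 reads in FFPE and frozen liver for Cyp2b10, and 6 and 5 reads in FFPE and frozen kidney, against 2381 and 27 reads in FFPE and frozen liver for Cyp2c69. In each of these 3 genes the FFPE library of the higher organ held far more reads than the frozen one, and the direction was kept in both pairs.

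The largest disagreements between the pairs, taken over all tested genes with a symbol, were Slc22a26, Entpd4b, Cyp2a4, Slc17a2, Cyp17a1 and Col11a2. The transporter Slc22a26 had 143 and 162 reads in FFPE and frozen kidney, against 745 and 3 reads in FFPE and frozen liver, so that the organ difference was −2.98 log2 units in the FFPE pair and 4.82 in the frozen pair. Cyp2a4, a steroid hydroxylase higher in the livers of female mice, had 1625 and 2636 reads in FFPE and frozen kidney, against 882 and 8 reads in FFPE and frozen liver. Its mean difference of 3.92 ± 1.31 log2 units was called, but 0.28 in the FFPE pair and 7.56 in the frozen pair are not alike. Slc17a2 had 105 and 0 reads in FFPE and frozen kidney, against 2530 and 1338 reads in FFPE and frozen liver, and the steroid hydroxylase Cyp17a1 had 0 and 1 reads in FFPE and frozen kidney, against 630 and 15 reads in FFPE and frozen liver. Col11a2 had 23 and 0 reads in FFPE and frozen kidney, against 12 and 22 reads in FFPE and frozen liver. In all, 19 tested genes pointed in opposite directions by more than 1 log2 unit in the 2 pairs. Of the 27 genes listed as sex-biased in liver or kidney 21 were tested. Of these 9 were higher in kidney and 11 lower, beside 27.7% and 27.8% over all tested genes. Among the 21, 2 entered through the kidney libraries alone and 4 through the liver libraries alone. The 6 left untested were not all silent. Their highest count was 4205 reads, in a gene above 1 CPM in 1 library alone. Of the listed genes 23 were above 1 CPM in FFPE liver and 17 in frozen liver. Among male-biased genes of liver, Elovl3 had 0 and 0 reads in FFPE and frozen kidney, against 2983 and 5836 reads in FFPE and frozen liver, and Cyp4a12a had 6.91 and 23.6 CPM in FFPE and frozen kidney, against 66.2 and 149 CPM in FFPE and frozen liver.

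**Figure D5:**
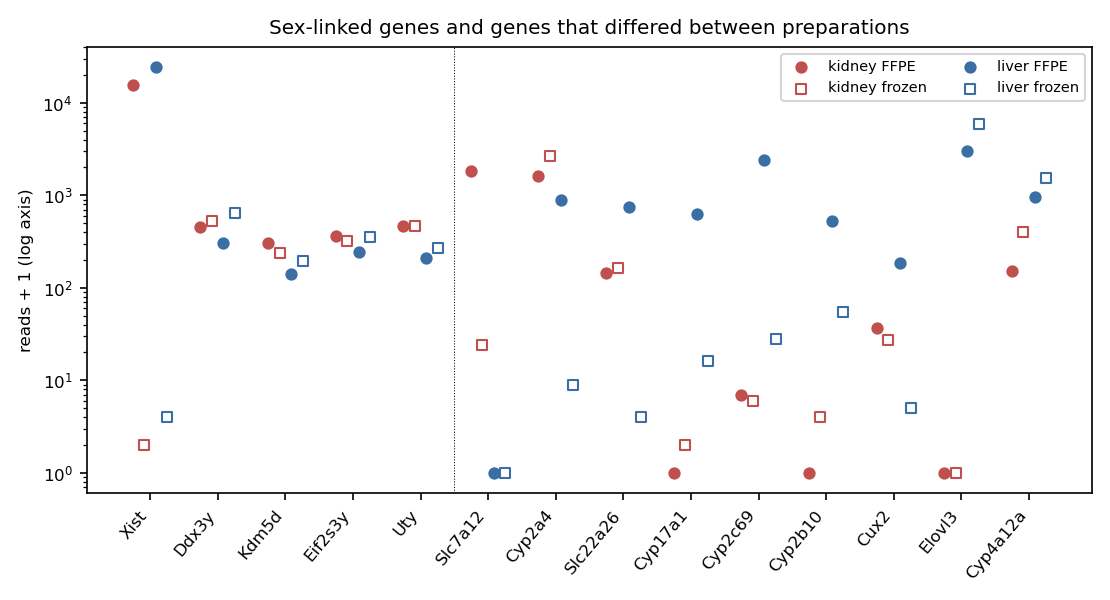
Reads plus 1, on a log axis, of 5 sex-linked genes (left of the dotted line) and 9 genes with sex-dependent expression or a large gap between preparations, in FFPE kidney, frozen kidney, FFPE liver and frozen liver. Xist is high in the FFPE libraries alone, at 15389 and 24213 reads in kidney and liver, and the Y-linked genes are present in all 4 libraries.

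The p-values rest on 2 libraries per organ, with 1 residual degree of freedom and a spread per gene that limma moderates by the trend across genes. Whether the libraries came from separate animals is not stated, so the spread may be partly technical. When the spread was estimated with brain and heart libraries included, 3233 genes were called higher in kidney and 2880 lower, and without scaling factors 4900 and 1953. Among the genes described, Anpep, Aqp1, Cdh1, Cox8a, Cyp2a4, F13b, Fbp1, G6pc, Me1, Ndufb8, Pck1, Scnn1a, Slc10a2, Slc17a3 and Xist were no longer called with brain and heart included.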

How the data were processed

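Total RNA of FFPE and frozen mouse kidney and liver was sequenced, with 1 library each. The authors deposited log2 values for 27179 genes. HISAT2, featureCounts, limma and genome mm10 are named in the submitters' processing notes, without versions; they name no annotation, strand setting or scaling method. From the deposited values themselves, each is the log2 of CPM with 0.5 reads added, on the total times a scaling factor of 1.415 and 0.912 in FFPE and frozen kidney and 0.929 and 0.759 in FFPE and frozen liver; whole reads came out for 100% of values, within 1e-06.

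Kidney and liver were compared on the log2 values with limma 3.58.1 in R 4.3.3, with terms for organ and preparation, a mean-variance trend, 1 residual degree of freedom and prior degrees of freedom of 6.86. Genes above 1 CPM in at least 2 of the 4 libraries entered, and calls used a Benjamini-Hochberg adjusted p under 0.05 over all 13382. Differences are kidney minus liver in log2 CPM, and printed CPM hold the 0.5 reads. They can understate differences of genes with few reads. Where an organ had 0 reads, folds were bounded with 3 reads over its 2 libraries; ratios with few reads have exact 95% binomial intervals. Floors and intervals cover counting error only.

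The 4 groups came from the tissue and treatment labels. No sample shares a replicate number with a meaning across organs; the preparation served as block. Members and the 34 gene lists were chosen with earlier results of these data known. The named genes were the 15 largest differences each way, 4 per list, both genes of each pair, the 6 closest each way and the 6 largest disagreements between preparations, and sex-linked genes; other genes were chosen after their values were seen. Of tested genes 13170 (98.4%) matched RefSeq (GRCm38.p6), which gave positions. The fit was tested on simulated data. Alternatives covered filters, scaling, pseudocount, trend, robust variance, voom, the block and left-out libraries. Some genes are not reported here.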

Additional observations from a re-analysis of the deposited data

Results flagged for a closer look

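For 19 tested genes the organ difference pointed in opposite directions in the FFPE and the frozen pair by more than 1 log2 unit each, and the 3 of these that are named in the text follow. The difference between the pairs was not tested, because each pair holds 1 library per organ. Slc22a26, a transporter gene, stood at −2.98 log2 units (kidney minus liver) in the FFPE pair and 4.82 in the frozen pair, with 143 and 162 reads in FFPE and frozen kidney, against 745 and 3 reads in FFPE and frozen liver. Entpd4b stood at 5.23 in the FFPE pair and −2.09 in the frozen pair, with 28 and 7 reads in FFPE and frozen kidney, against 0 and 19 reads in FFPE and frozen liver; it has a close copy in the genome, so its reads are uncertain. Cux2, a transcription factor higher in female liver, stood at −2.96 in the FFPE pair and 1.84 in the frozen pair, with 36 and 26 reads in FFPE and frozen kidney, against 186 and 4 reads in FFPE and frozen liver. The FFPE libraries held Xist and the frozen ones did not, beyond 1 and 3 reads, and the part of this in the 3 genes was not tested.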

How the results depend on the processing

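Against 3707 genes higher in kidney and 3725 lower, the counts stayed within 1.5 times under 9 alternatives: 8 libraries in the fit, a stricter filter, quantile normalization, median centring, median-of-ratios factors, log2(CPM + 5), no mean-variance trend, robust variance and voom on the recovered reads. With no filter 10271 genes were lower, because 5955 genes without a read in any of the 4 libraries then carry a difference of −0.60 in FFPE and −0.71 in frozen tissue that comes from library size alone. With only genes above 1 CPM in all 4 libraries, which leaves fewer genes, 2419 were higher. No scaling factors gave 1953 lower, and the fit without the preparation block, so without pairing the libraries by preparation, gave 2333 lower (2733 higher). Leaving out 1 library, with the spread taken from 8 libraries including brain and heart and the lone sample assumed to vary like the others, gave 2347 higher without frozen kidney, 2463 without FFPE kidney and up to 2670 without 1 liver library, and 1928 to 2071 lower (2006 and 1994 without FFPE and frozen kidney), against 3233 and 2880 with all 8 libraries. Chosen after seeing the data, the frozen libraries alone gave 2405 higher and 1779 lower, and the FFPE libraries alone 2244 and 1664.

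Some list medians changed sign: with genes above 1 CPM in all 4 libraries, endocrine genes to −1.16 and the median of epithelial junctions and polarity to −0.75, gluconeogenesis to 0.11 and the respiratory chain to 0.38 with quantile normalization, the respiratory chain to 0.38 and stress genes to 0.037 without scaling factors, and sex-linked genes to 0.78 without FFPE kidney and 1.39 without frozen liver. Quantile normalization turned Acadl (0.53), Fbp1 (0.014) and Hnf4a (0.67), and voom turned Slc22a26 (−2.20). Leaving out 1 library turned Cox8a (−0.0021 to 1.02), Cux2 (−2.76 to 1.64; 1.84 in the frozen libraries alone) and Xist (−4.53 to 1.33, with 0.88 without FFPE liver). The cause was not tested for these sign changes. Of 172 genes named in the text and called, 126 kept the call under all 19 alternatives in which they could be fitted, and 46 lost it under at least 1. Robust variance ended the call of Umod, Slc12a1, Kap, Aqp2 and Slc22a12, among others. Without 1 library, whichever was left out, Anpep, Cdh1, Cox8a, F13b, Fbp1, G6pc, Pck1, Scnn1a, Slc10a2, Slc17a3, Xist, Fabp4 and Slc26a1 were not called, but of these all except Fabp4 and Slc26a1 had already lost the call with all 8 libraries in the fit. Depth limits genes near the floor, and no counting interval covers the spread between animals.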
